A study of Mus musculus with 82 samples.

Results

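Sox2, Nanog, Pou5f1 and Klf4 were followed through the 3 assays of nascent RNA of the series, by strand and by position along each gene. The 4 genes were taken by name, and they are 4 of the 24746 RefSeq genes counted. For each gene, reads were placed over the gene and 20 kb on either side of it on the mouse build GRCm38. All 4 genes passed the minimum of 50 reads in every comparison with AGTuC or scGRO-seq given below, except that the 1 exon of Sox2 leaves no intron to compare and that Pou5f1 and Klf4 fell below it within the batches shared by scGRO-seq and inAGTuC.

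The 4 genes encode transcription factors of the network that keeps embryonic stem (ES) cells undifferentiated. Sox2 is an HMG-box factor that binds DNA together with the POU-domain factor Oct4, the product of Pou5f1. Nanog is a homeodomain factor, and Klf4 is a zinc-finger factor of the Krüppel-like family that binds GC-rich sites. A run-on reaction lets RNA polymerases that are already engaged on DNA add labelled nucleotides, so that the 3′ end of each RNA marks where a polymerase stood. Polymerases are found paused close to many gene starts, moving through gene bodies, transcribing past the gene end, and running away from the start on the opposite strand as upstream antisense transcription.

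All samples came from 1 line, V6.5 mouse ES cells, grown in serum with leukemia inhibitory factor, and no group differed in genotype, treatment or time. AGTuC is a run-on with clickable nucleotides in bulk nuclei under a sarkosyl concentration that breaks nuclear membranes, and has 2 libraries, both from batch Exp125c. inAGTuC uses less sarkosyl so that nuclei stay intact and are barcoded in wells that hold many nuclei each, and has 4 libraries from batches Exp208, Exp234 and Exp261. scGRO-seq is the same intact-nuclei chemistry with 1 cell to a well, and 10 batches with 2512 kept cells in 35 libraries were compared. Because both AGTuC libraries share a batch that holds no other assay, batch and assay cannot be told apart in any comparison with AGTuC. Nothing in the labels says that libraries or batches came from separate cultures, so p-values measure the spread between these samples.

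The promoters are shown first because the promoter and upstream antisense windows below are counted from these starts. Each line gives 250 bases before and 30 bases from the RefSeq start, read 5′ to 3′ on the strand of the gene from the RefSeq promoter table of GRCm38.p6, in which all 4 genes were matched by symbol. Capitals mark the core of a POU site (ATGCAAA or its reverse complement TTTGCAT), the core of a SOX site (ACAATG or CATTGT) and the GC box (GGGCGG or CCGCCC), searched on both strands. The coordinates are chr3:34649745-34650024 on the plus strand for Sox2, chr6:122707239-122707518 on the plus strand for Nanog, chr17:35505782-35506061 on the plus strand for Pou5f1 and chr4:55532446-55532725 on the minus strand for Klf4.
Sox2: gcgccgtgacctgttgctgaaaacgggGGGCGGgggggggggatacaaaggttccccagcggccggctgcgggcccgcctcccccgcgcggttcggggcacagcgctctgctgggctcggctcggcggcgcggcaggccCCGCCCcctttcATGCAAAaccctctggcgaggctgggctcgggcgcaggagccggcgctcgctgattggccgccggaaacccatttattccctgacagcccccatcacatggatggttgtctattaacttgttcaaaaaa
Nanog: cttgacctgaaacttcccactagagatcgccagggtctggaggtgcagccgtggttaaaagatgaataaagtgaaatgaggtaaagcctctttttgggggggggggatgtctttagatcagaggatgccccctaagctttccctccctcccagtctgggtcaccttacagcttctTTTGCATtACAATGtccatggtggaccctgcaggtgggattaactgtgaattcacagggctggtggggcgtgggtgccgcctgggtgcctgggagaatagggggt
Pou5f1: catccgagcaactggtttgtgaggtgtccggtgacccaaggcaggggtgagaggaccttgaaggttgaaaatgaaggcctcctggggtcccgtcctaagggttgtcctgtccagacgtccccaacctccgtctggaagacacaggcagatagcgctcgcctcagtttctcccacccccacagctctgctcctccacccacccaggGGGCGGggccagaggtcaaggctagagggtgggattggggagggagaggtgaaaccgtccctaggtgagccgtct
Klf4: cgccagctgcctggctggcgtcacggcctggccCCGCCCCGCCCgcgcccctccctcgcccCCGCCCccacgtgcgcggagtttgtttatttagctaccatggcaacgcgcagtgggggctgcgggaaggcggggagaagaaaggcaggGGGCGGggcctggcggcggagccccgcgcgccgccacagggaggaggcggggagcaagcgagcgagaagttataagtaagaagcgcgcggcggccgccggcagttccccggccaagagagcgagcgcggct

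Of 32817 promoters of the table, each searched over all its 300 bases as the 4 were, 4.63% hold the POU core, 12.6% the SOX core, 35.6% the GC box and 13.6% a TATA box (TATAAA or TTTATA). Counted from the gene start at 0, with the first base of each match as its position, the POU core lies at -99 in Sox2 and at -75 in Nanog, and the SOX core lies at -67 in Nanog. GC boxes lie at -223 and -111 in Sox2, at -45 in Pou5f1 and at -217, -212, -189 and -101 in Klf4, where the first 2 overlap. These letters were not found as a TATA box in any of the 4 windows. The windows differ in base composition, from 53.9% G and C in Nanog to 73.6% in Klf4, with 67.5% in Sox2 and 61.8% in Pou5f1. A match of letters is a description of the sequence and says nothing of binding.

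Sox2 is a single exon of 2467 bp at chr3:34649995-34652461 on the plus strand, and lies inside the non-coding RNA gene Sox2ot (chr3:34560381-34677993) on the same strand, so that reads of the 2 genes cannot be told apart. Nanog covers 7145 bp at chr6:122707489-122714633 on the plus strand, and Slc2a3, which encodes a glucose transporter, has its 3′ end on the opposite strand 13.2 kb past the end of Nanog. Pou5f1 covers 4746 bp at chr17:35506032-35510777 on the plus strand, with Tcf19 on the opposite strand 1.96 kb past its end and Cchcr1 on the same strand 6.27 kb past it. Klf4 covers 5339 bp with 5 exons at chr4:55527137-55532475 on the minus strand.

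The samples held between 223119 and 4928371 reads, where 1 read is 1 UMI left after duplicates were removed. Between 2231837 and 4755740 were counted in AGTuC libraries, between 623265 and 1462003 in inAGTuC libraries and 11621648 over all scGRO-seq batches. Molecules found in more than 1 library were left out, which removed up to 0.511% of an AGTuC library, up to 23.5% of an inAGTuC library and up to 47.4% of a scGRO-seq library in the 10 batches. The kept cells carried 254 cell barcodes, of which 226 were found in more than 1 library. All 10 markers of ES cells chosen for a check, the 4 genes among them, were detected in every assay, with a median over the list of 13 sense reads per kb in AGTuC for 1000000 reads of the assay (RPKM), 4.54 in inAGTuC and 3.24 in scGRO-seq. Over 10 markers of other cell types the medians were 0.129, 0.295 and 0.353. Sox1, a neural marker, was the exception at 13.8 in AGTuC, against 0.852 and 0.618 in the other assays, while Col1a2 was at 0 in AGTuC.

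Of these samples, 2 stood apart. The inAGTuC library Exp234_c11 had 53.1% of its reads inside genes on the antisense strand, against 19.6% to 31.8% in the other 3 inAGTuC libraries. The scGRO-seq batch Exp156 had the lowest antisense share of its assay, 16.1% against 24.2% to 35.3% in the other 9 batches. It also had the highest summed sense level of the 4 genes, 193 reads for every 1000000 (RPM) against 30.6 to 61.3. Over the 4 genes, the median length of sense reads was 69 bases in both AGTuC libraries, 40.5 to 49 in inAGTuC libraries and 43 to 60 in scGRO-seq batches, and the part of read length in the results was not tested.

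**Figure D1:**
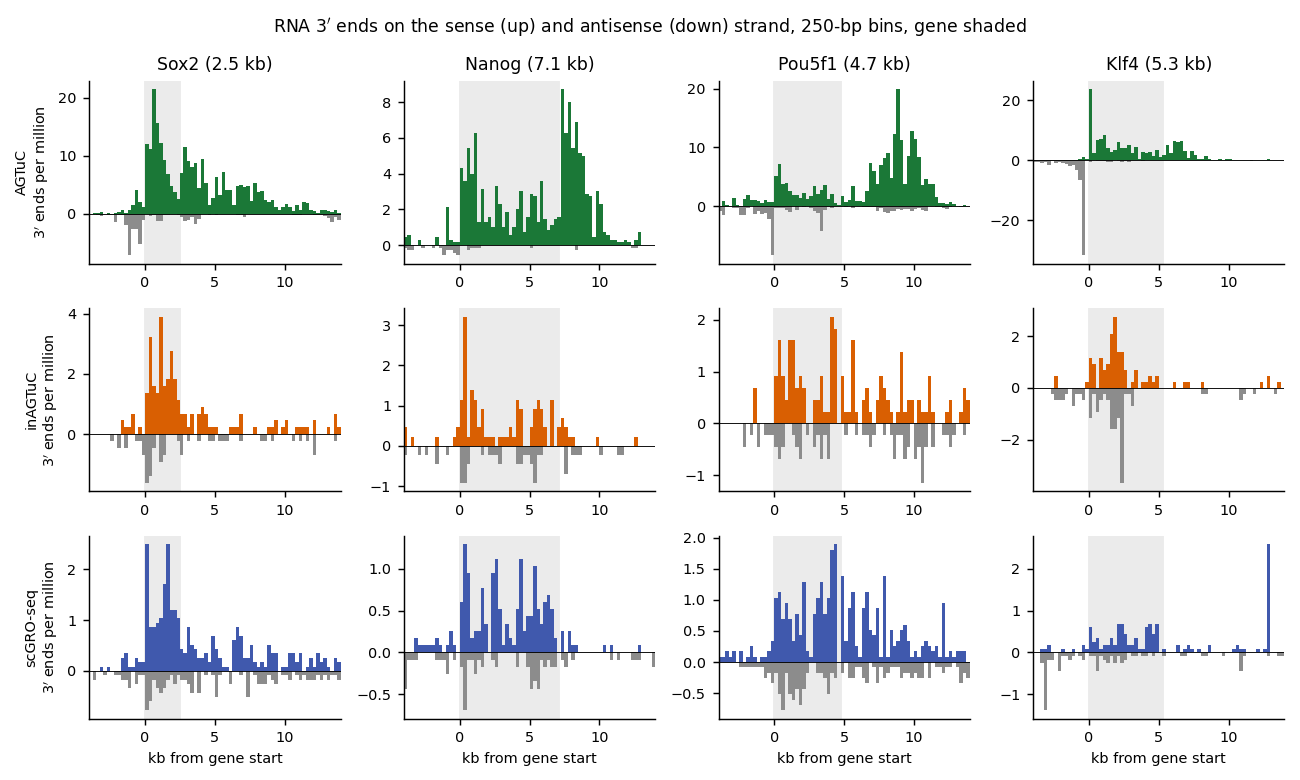
RNA 3′ ends (RPM, scaled to 1000000 reads) in 250-bp bins along Sox2, Nanog, Pou5f1 and Klf4, with distance from the gene start in kb on the x axis, sense reads drawn upwards in colour, antisense reads downwards in grey and the gene shaded, for AGTuC (top), inAGTuC (middle) and scGRO-seq (bottom), all samples of an assay pooled and each panel on its own scale. AGTuC shows a sense peak at the start of Klf4 with an antisense peak before it, and sense reads past the end of all 4 genes, with the highest bins of Nanog and Pou5f1 lying beyond the gene.

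Gene body levels of all 4 genes were higher in AGTuC than in inAGTuC, and none differed between scGRO-seq and inAGTuC by the test. A gene body runs from 500 bp after the start to 500 bp before the end, and levels are given as RPKM, the sense reads per kb scaled to 1000000 reads (RPM) of the sample. In these bulk or pooled values, fewer cells with a gene and less RNA per cell cannot be told apart.

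Sox2 was the highest of the 4 per kb, at 48.3 and 46.9 in the AGTuC libraries and at 13.1, 12.4, 5.60 and 8.43 in the inAGTuC libraries Exp208_c12, Exp208_c14, Exp234_c11 and Exp261_c16. In scGRO-seq its level ran from 0 in Exp246, where a limit of 3 reads of 425248 allows up to 4.81 RPKM, to 18.3 in Exp156, with a median of 5.39. Klf4 was at 16.7 and 15.7 in AGTuC and at 1.48, 3.65, 5.36 and 1.11 in inAGTuC, and in scGRO-seq its lowest, median and highest batches were at 0.286, 1.45 and 9.30. In AGTuC both genes lay above every sample of the other assays, as did 16.9% of the 13767 genes tested, and Exp156 was the highest scGRO-seq batch for both.

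Pou5f1 was at 11.1 and 9.15 in AGTuC, at 0.857, 3.57, 1.64 and 4.95 in inAGTuC, and at 0.399, 3.25 and 7.18 in its lowest, median and highest scGRO-seq batches. Nanog was at 9.84 and 8.55 in AGTuC, at 2.35, 3.17, 1.00 and 2.35 in inAGTuC, and at 0.383, 1.70 and 10.2 in scGRO-seq. Both genes were above every inAGTuC library in AGTuC, as were 29.7% of all genes tested. Pou5f1 in AGTuC also lay above every scGRO-seq batch, and so above every other sample, as did 16.9% of those genes. For Nanog, the batch Exp156 reached past both AGTuC libraries, while the other 9 batches lay at or below 2.25.

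Levels were compared as the log2 ratio of AGTuC (2 libraries) to inAGTuC (4 libraries) relative to all genes. Here and in the AGTuC comparisons below, the spread behind SE and p was estimated over all samples, scGRO-seq batches included. The ratio was 2.04 ± 0.73 (SE; adjusted p = 0.0469) for Klf4 and 2.01 ± 0.49 (adjusted p = 0.0165) for Sox2. It was 1.81 ± 0.60 (adjusted p = 0.0365) for Nanog and 1.53 ± 0.55 (adjusted p = 0.0482) for Pou5f1. All 4 genes were thus called higher, where 6.71% of the 13767 genes tested were called higher and 10.7% lower, and the median gene stood at -0.06. Scaling by total reads moved the median of all genes to 0.24, and Nanog at 2.08 (adjusted p = 0.0635) then missed the threshold. The calls were close to the threshold. Leaving out 1 AGTuC or inAGTuC library at a time gave log2 ratios from 1.29 (Pou5f1 without Exp208_c12) to 2.95 (Klf4 without Exp234_c11). The number of the 4 genes called fell to 0 without AGTuC library Exp125c_c01 and to 1 without Exp125c_c02, Exp208_c12 or Exp208_c14, and to 2 without Exp234_c11 or Exp261_c16. Without Exp125c_c01, 231 of all genes were called higher and 0 lower. In this and every other comparison without 1 AGTuC library, the remaining one was assumed to vary like the samples of the other assays. Pou5f1 also lost its call without scGRO-seq batch Exp246 (adjusted p = 0.0550), and Klf4 without Exp208 (0.0523) or Exp260 (0.0533). Without scGRO-seq batch Exp156, the SE was 0.40 for Nanog, 0.61 for Klf4, 0.47 for Sox2 and 0.56 for Pou5f1.

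Against inAGTuC, the scGRO-seq level differed by log2 ratios of -0.60 ± 0.39 for Sox2, 0.09 ± 0.46 for Nanog, 0.33 ± 0.42 for Pou5f1 and -0.72 ± 0.57 for Klf4, with adjusted p of at least 0.985 for all 4. None of the 4 genes passed the test, moderated with limma, nor an unadjusted p of 0.05, and 2 of all 13767 genes (0.0145%) were called while 677 had an unadjusted p below 0.05. Within batch Exp208, the only one of the 10 batches that also has inAGTuC libraries, Sox2 was at 6.75 RPKM in scGRO-seq and 12.7 in inAGTuC, Nanog at 0.966 and 2.82, Pou5f1 at 1.59 and 2.40, and Klf4 at 3.19 and 2.71. In that batch the scGRO-seq values rested on 5, 3, 3 and 7 body reads, and the inAGTuC values on 27, 25, 13 and 17. Batch Exp234 had no scGRO-seq library with enough kept cells. With experiment batch as a block, over Exp208 and over Exp261 from outside the 10, the log2 ratio was -0.99 ± 0.91 for Sox2 and -0.80 ± 0.88 for Nanog (adjusted p = 1.00 by the quasi-likelihood test), and Pou5f1 and Klf4 had too few reads to be tested.

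**Figure D2:**
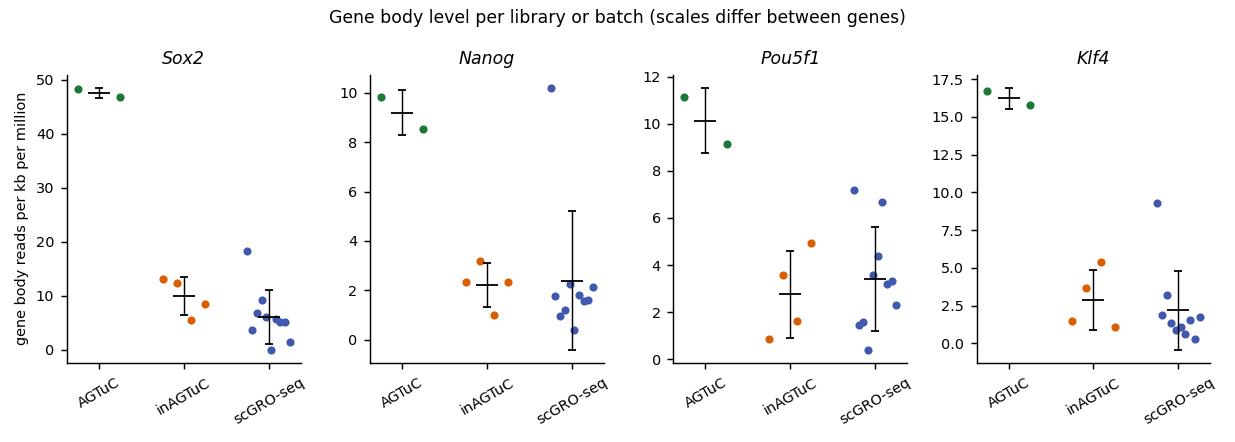
Gene body level in RPKM (sense reads per kb, scaled to 1000000 reads) for each AGTuC library, inAGTuC library and scGRO-seq batch (points), with the mean and SD of the assay as bars and a separate y axis for each gene. Both AGTuC libraries lie above all inAGTuC libraries for each gene, as 29.7% of all genes do, and 1 scGRO-seq batch, Exp156, lies at 18.3 for Sox2, 10.2 for Nanog and 9.30 for Klf4.

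The order of the 4 genes by level was Sox2, Klf4, Pou5f1 and Nanog in AGTuC, with means of 47.6 ± 0.981, 16.2 ± 0.692, 10.1 ± 1.40 and 9.20 ± 0.911 RPKM (SD, n = 2). The same order held for the means of inAGTuC, which were 9.90 ± 3.54, 2.90 ± 1.99, 2.76 ± 1.86 and 2.22 ± 0.898 (SD, n = 4), but the places of the lower 3 rested on single libraries. Without Exp234_c11 the means were 11.3 for Sox2, 3.13 for Pou5f1, 2.62 for Nanog and 2.08 for Klf4, and the order also changed without Exp208_c12 or Exp261_c16. In scGRO-seq the order was Sox2 at 6.14 ± 5.01, Pou5f1 at 3.41 ± 2.20, Nanog at 2.39 ± 2.80 and Klf4 at 2.19 ± 2.62 (SD, n = 10). Without Exp156 the same order held at 4.79, 2.99, 1.52 and 1.40 (n = 9). None of the 3 neighbouring pairs in scGRO-seq differed by an exact test that flips the signs of the batch differences (two-sided), which cannot give a p below 0.00195. Sox2 was above Pou5f1 by 2.73 in the mean and in 7 of 10 batches (exact p = 0.104, adjusted over 3 pairs 0.308), Pou5f1 above Nanog by 1.02 in 7 of 10 (exact p = 0.205, adjusted 0.308), and Nanog above Klf4 by 0.196 in 6 of 10 (exact p = 0.584, adjusted 0.584). When reads listed in more than 1 library were counted too, Sox2 exceeded Pou5f1 by 5.46 in 10 of 10 batches (exact p = 0.00195, adjusted 0.00586), and with no minimum of genes per cell by 3.72 in 9 of 10 (exact p = 0.00586, adjusted 0.0176).

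Over the 16 samples, the genes whose level was most like that of each of the 4 were ranked by Pearson's r of log2(gene body RPM + 1), among 9139 genes (9140 for Sox2) longer than 1500 bp with at least 100 body reads and at least 1 in every sample (Sox2 itself had none in Exp246). Sox2 was most like Msi1 (r = 0.912), Klf10 (0.906) and Dtymk (0.901). Nanog was most like Syvn1 (0.944), Slc29a1 (0.921) and Psmb3 (0.919), Pou5f1 most like Zscan10 (0.947), Set (0.943) and Anp32b (0.92), and Klf4 most like Nynrin (0.935), Cpt1a (0.906) and Slc41a1 (0.902). These values describe the highest of 9139 correlations or more over samples that fall into 3 assays, share their library's depth and include Exp156, so they carry no p-value. Over the 10 scGRO-seq batches alone, Pou5f1 had an r of 0.913 with Zscan10, a zinc-finger factor of ES cells, 0.944 with Set and 0.925 with Anp32b. For the other genes these values ran from 0.814 (Klf4 with Slc41a1) to 0.927 (Klf4 with Nynrin). The partners were picked over samples that include these 10 batches, Exp156 among them, so these values are no separate check.

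Of 16 other pluripotency genes, 14 were measured in gene bodies. Of these, 5 were called higher in AGTuC than in inAGTuC and none lower, where 6.71% of 13767 genes were called higher and 10.7% lower. Their median log2 ratio was 1.01 beside -0.06 for all genes. They ranged from Dppa4 at -0.68 (adjusted p = 0.516) to Tbx3, a T-box factor, at 2.72 (adjusted p = 0.00727).

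The promoter share of the 4 genes, the reads of the first 500 bp as a percentage of promoter and body reads, did not differ between AGTuC and inAGTuC by the test, although it was higher in AGTuC for most genes. Klf4 had promoter shares of 20.6% and 30.1% in AGTuC, and of 20%, 18.8%, 10.5% and 12.5% in inAGTuC in the order of libraries given above. Both AGTuC libraries lay above every inAGTuC library for Klf4, the lower of them by less than 1 percentage point, where 62% of the 12308 genes with a value in all 6 libraries did so.

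Sox2 had 20.6% and 27% in AGTuC and 25.0%, 28.6%, 42.9% and 5.26% in inAGTuC, and Pou5f1 had 21.2% and 27.2% in AGTuC and 50.0%, 26.7%, 0% and 15.6% in inAGTuC. The AGTuC libraries of both genes lay within the range of inAGTuC, in which single libraries rested on as few as 4 promoter and body reads of Pou5f1. Nanog had 14% and 11.7% in AGTuC, below all of the 18.2%, 15.8%, 35.7% and 30% of inAGTuC, as were 0.162% of those 12308 genes. In scGRO-seq the lowest, median and highest batches were at 14.3%, 27.9% and 60% for Sox2, 0%, 12.4% and 57.1% for Nanog, 0%, 11% and 40% for Pou5f1, and 0%, 5.56% and 50.0% for Klf4. The highest batches rested on few promoter and body reads, 3 and 2 for Sox2 (Exp264a) and 4 and 3 for Nanog (Exp208). They were 2 and 3 for Pou5f1 (Exp208) and 1 and 1 for Klf4 (Exp260).

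The log2 odds ratio of promoter against body between AGTuC and inAGTuC was 1.10 ± 0.62 (SE; adjusted p = 0.129) for Klf4, 0.49 ± 0.65 (adjusted p = 0.546) for Pou5f1, -0.14 ± 0.51 (adjusted p = 0.859) for Sox2 and -1.22 ± 0.71 (adjusted p = 0.140) for Nanog. None of the 4 was called by the quasi-likelihood test moderated with limma and none had an unadjusted p below 0.05, where 53.2% of 13833 genes were called, 52.8% as higher and 0.34% as lower in AGTuC. The median gene stood at 2.57. Other choices changed single calls, with Klf4 at 1.92 (adjusted p = 0.0234) for a promoter of 250 bp and at 1.74 (adjusted p = 0.0176) with all deposited reads, and Sox2 at 1.89 (adjusted p = 0.00197) with the GENCODE start at chr3:34650405, inside the RefSeq gene. The sign for Sox2 also turned, to 0.63 for a promoter of 250 bp, to 0.09 without AGTuC library Exp125c_c01 and to 0.38 without Exp234_c11, none of these called.

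Set beside all genes, the pooled promoter shares of the 4 genes ranked high in inAGTuC and near or below the middle in AGTuC. Pooled over libraries, the promoter share was 26% for Sox2 (95% Wilson interval 17.5 to 36.7), 25.7% for Nanog (17.1 to 36.7), 18.3% for Pou5f1 (10.6 to 29.9) and 13.4% for Klf4 (7.23 to 23.6) in inAGTuC, where the median gene was at 3.125%. Those shares lay at percentiles 98.5, 98.4, 95.6 and 91.5 of 11708 genes. The pooled scGRO-seq shares lay at percentiles 98.3, 92.0, 93.6 and 91.3 of 13717 genes. In AGTuC the pooled shares of 25.0%, 12.5%, 25.1% and 27.2% lay at percentiles 50.8, 27.7, 50.9 and 54.2 of 12253 genes, whose median was 24.6%. Genes with at least 20 reads in both windows together were ranked with no adjustment for length, and a window of 500 bp is a larger part of a short gene. Reads spread evenly over promoter and body would give shares of 25.4% for Sox2, 7.52% for Nanog, 11.8% for Pou5f1 and 10.3% for Klf4. The inAGTuC intervals of Sox2, Pou5f1 and Klf4 held their even shares and that of Nanog did not, and the part of length in the ranks was not tested. The intervals cover counting error only, and no ranks were taken by library.

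Within the first 500 bp, the AGTuC reads of the 4 genes lay at different distances from the start. Klf4 had 143 of its 182 promoter reads in the first 100 bp (78.6%, 95% Wilson interval 72.1 to 83.9), and 84 of them between 50 and 99 bp. Sox2 had 30 of 162 there (18.5%, 13.3 to 25.2), and its fullest 50 bp, with 28 reads, lay at 400 to 449 bp, where the GENCODE start lies at 410 bp, so that its distances depend on the annotation. Pou5f1 had 17 of 86 (19.8%, 12.7 to 29.4), with its fullest 50 bp at 0 to 49 bp. Nanog had 1 of 55 (1.82%, 0.322 to 9.61), with its fullest 50 bp at 100 to 149 bp. In inAGTuC and scGRO-seq the promoter reads of Klf4 numbered 9 and 10 in all, of which 3 and 2 lay in the first 100 bp.

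Between scGRO-seq and inAGTuC, the log2 odds ratio was 0.28 ± 0.51 for Sox2, -0.97 ± 0.67 for Nanog, -0.32 ± 0.66 for Pou5f1 and -0.15 ± 0.72 for Klf4 (adjusted p between 0.782 and 0.981). None of the 4 and none of all 13833 genes (0%) was called, while 977 genes and none of the 4 had an unadjusted p below 0.05. Of the other pluripotency genes, 13 were measured. Of these, 2 were called higher in AGTuC than in inAGTuC and none lower, where 52.8% of 13833 genes were called higher and 0.34% lower. Their median of 0.86 was also below the 2.57 of all genes, and they ranged from Lefty1, a secreted Nodal inhibitor, at -1.66 (adjusted p = 0.0681) to Dppa4 at 2.99 (adjusted p = 0.0306).

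Readthrough over the 5 kb past the gene end was higher in AGTuC than in inAGTuC for all 4 genes. For Pou5f1 the excess lay mostly more than 2 kb past the end. The readthrough share is the sense reads in the 5 kb past the gene end as a percentage of these and the body reads. For Pou5f1 it was 73.4% and 76.9% in AGTuC and 66.7%, 42.1%, 30.8% and 49.1% in inAGTuC. For Sox2 it was 62.3% in both AGTuC libraries and 33.3%, 25.0%, 42.9% and 33.3% in inAGTuC. Neither gene overlapped between these assays, where both AGTuC libraries also lay above all inAGTuC libraries for 45.3% of 11455 genes. Both counts were largest in AGTuC, with 800 readthrough reads of Pou5f1 and 801 of Sox2 against 42 and 29 in inAGTuC. Of the 800 reads of Pou5f1, 714 lay 2 to 5 kb past the end. Its density in the first kb was 0.746 of its body in AGTuC and 0.994 in inAGTuC, and in the second 0.512 and 0.459.

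Nanog was at 48.1% and 54.1% in AGTuC and at 0%, 15.8%, 25.0% and 12.5% in inAGTuC, where it had 9 readthrough reads in all. Klf4 was at 30.8% and 39.5% in AGTuC and at 20%, 13.3%, 0% and 12.5% in inAGTuC, on 4 readthrough reads. Here, too, AGTuC and inAGTuC did not overlap, on far fewer inAGTuC reads. All 4 genes were thus above every inAGTuC library in AGTuC, as were 45.3% of the 11455 genes with a value in all 6 libraries. In scGRO-seq the lowest, median and highest batches were at 14.3%, 29.7% and 100% for Sox2, 0%, 4.57% and 50.0% for Nanog, 25.0%, 49.2% and 77.8% for Pou5f1, and 0%, 7.89% and 50.0% for Klf4. The 100% of Sox2 was batch Exp246, with 5 readthrough reads and no body read. The 50.0% of Nanog (Exp246) and of Klf4 (Exp260) were each 1 readthrough read beside 1 body read.

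The log2 odds ratio of readthrough against body between AGTuC and inAGTuC was 2.69 ± 0.84 (SE; adjusted p = 0.0143) for Nanog, 2.65 ± 0.86 (adjusted p = 0.0151) for Klf4, 1.86 ± 0.46 (adjusted p = 0.00474) for Pou5f1 and 1.70 ± 0.63 (adjusted p = 0.0432) for Sox2. All 4 genes were called higher, where 26.2% of 13170 genes were called higher and 1.44% lower, and the median gene stood at 1.62. By pooled readthrough share, Sox2 stood at percentile 92.1 of the genes ranked in AGTuC and 91.9 in inAGTuC. Pou5f1 stood at 96.6 and 96.0, Nanog at 86.8 and 73.2, and Klf4 at 73.8 and 50.1. These ranks had no adjustment for length, and a fixed window gives a larger share beside a short body. The bodies were 1467 bp for Sox2, 3746 bp for Pou5f1, 4339 bp for Klf4 and 6145 bp for Nanog. How far length accounts for these ranks was not tested. Pou5f1 kept its call in 24 of 24 alternatives, Nanog in 22, Klf4 in 20 and Sox2 in 16. Sox2 lost it without either AGTuC library (adjusted p = 0.131 and 0.132) and without Exp208_c12 (0.0773), Exp208_c14 (0.115) or Exp261_c16 (0.0954). Nanog lost it without Exp125c_c02 (2.51, adjusted p = 0.0626) or Exp261_c16 (2.61, 0.0539), and Klf4 without Exp125c_c02 (2.33, 0.0715) or Exp234_c11 (1.69, 0.116).

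**Figure D3:**
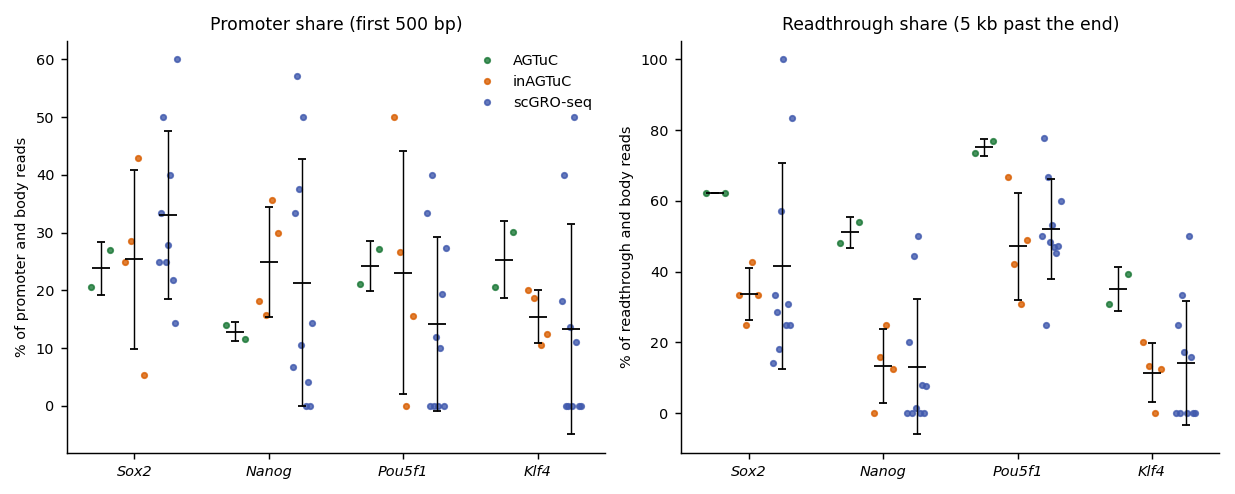
Promoter share (left, reads of the first 500 bp as a percentage of promoter and body reads) and readthrough share (right, sense reads in the 5 kb past the end as a percentage of readthrough and body reads) for each AGTuC library, inAGTuC library and scGRO-seq batch, with the mean and SD of the assay as bars. Promoter shares of AGTuC and inAGTuC overlap for Sox2 and Pou5f1 but not for Nanog (AGTuC below) or Klf4 (AGTuC above), while the AGTuC readthrough shares lie above all inAGTuC libraries for each gene, at 73.4% and 76.9% for Pou5f1.

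The reads past the end were spread differently for each gene in AGTuC. Nanog and Klf4 held theirs close to the end. Relative to its own body, Nanog had a density per kb of 3.10 in the first kb past the end and 2.33 in the second, against 0.426 between 2 and 5 kb and 0.0415 between 5 and 10 kb. Klf4 had 1.06 and 0.962, then 0.169 and 0.00535.

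Pou5f1 was densest away from its end, with 0.746 and 0.512 of its body density in the first and second kb, 3.48 between 2 and 5 kb and 1.10 between 5 and 10 kb, where Cchcr1 begins. Between 2 and 5 kb past the end, the reads were 233 and 481 in the 2 AGTuC libraries, or 34.8 and 33.7 RPKM. The inAGTuC libraries held 2, 5, 4 and 12 reads there, or 0.912 to 2.75 RPKM, and the scGRO-seq batches between 0.498 and 5.49. This window of 2 to 5 kb lies opposite Tcf19 and holds no other RefSeq gene on the strand of Pou5f1. In inAGTuC and scGRO-seq the density of Pou5f1 there was 0.586 and 0.611 of its body, below the 0.994 and 1.14 of the first kb.

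Sox2 declined slowly, from 0.744 and 0.620 of its body density in the first and second kb to 0.353 between 2 and 5 kb and 0.149 between 5 and 10 kb, all within Sox2ot. On the same strand before the start of Sox2, also within Sox2ot, the density was 0.181 of the body in the nearest kb, 0.0363 in the next and 0.00706 between 2 and 5 kb.

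Between scGRO-seq and inAGTuC, the log2 odds ratio of readthrough was 0.66 ± 0.59 for Sox2, -0.78 ± 0.97 for Nanog, 0.31 ± 0.39 for Pou5f1 and 0.85 ± 0.93 for Klf4 (adjusted p = 0.968 to 0.970). By the limma-moderated test none of the 4 and none of all 13170 genes (0%) was called, and 683 genes, but none of the 4, had an unadjusted p below 0.05. Outside the tested window, 30 of the 32 sense reads of batch Exp260b between 5 and 10 kb past Klf4 lay within 20 bp at 7.55 kb, in 28 combinations of library and barcode and with a median length of 17 bases. Among the other pluripotency genes, 10 of 12 measured were called higher in AGTuC than in inAGTuC, where 26.2% of 13170 genes were. Their median was 2.71 beside 1.62 for all genes. They ranged from Prdm14 at 1.38 (adjusted p = 0.227) to the nuclear receptor gene Esrrb at 4.76 (adjusted p = 0.000673).

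Upstream antisense reads were most frequent at Klf4 in AGTuC. Their share is the antisense reads in the 1 kb before the start as a percentage of these and the sense body reads. Klf4 was at 40.9% and 35.5% in AGTuC, on 112 and 179 upstream reads, and at 0%, 18.8%, 0% and 12.5% in inAGTuC, on 4 reads in all. Pou5f1 was at 21.2% and 28.5% in AGTuC and at 0%, 0%, 10.0% and 6.90% in inAGTuC. For both genes the AGTuC libraries lay above all inAGTuC libraries, which was so for 48.7% of the 9348 genes with a value in each.

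Sox2 was at 15.1% and 13.7% in AGTuC and at 0%, 6.25%, 14.3% and 10.0% in inAGTuC, so that Exp234_c11 fell between the AGTuC libraries. Nanog was at 2.88% and 2.72% in AGTuC, and in inAGTuC had a single upstream read, in Exp261_c16, which gave 4.55% there and 0% in the other 3. In scGRO-seq the medians were 0% for Sox2, Nanog and Klf4 and 1.67% for Pou5f1, with highest batches at 33.3%, 4.23%, 50.0% and 50.0%, all resting on 3 upstream reads or fewer.

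The log2 odds ratio between AGTuC and inAGTuC was 3.01 ± 0.98 (SE; adjusted p = 0.0112) for Klf4, 2.50 ± 1.22 (adjusted p = 0.0895) for Pou5f1, 0.95 ± 0.76 (adjusted p = 0.364) for Sox2 and 0.76 ± 1.20 (adjusted p = 0.683) for Nanog. Klf4 was called, 1 of 4, where 30.7% of 10534 genes were called higher and 1.07% lower, and the median gene stood at 2.16. By pooled upstream share, Klf4 stood at percentile 88.8 of the genes ranked in AGTuC and 88.7 in inAGTuC. Pou5f1 stood at 80.7 and 87.0, Sox2 at 63.9 and 91.7, and Nanog at 26.4 and 59.6. These ranks, too, had no adjustment for the length of the body, whose part was not tested. Leaving out 1 sample at a time moved Klf4 between 1.92 and 4.50. It lost its call without Exp234_c11, which has no upstream read (1.92, adjusted p = 0.115), and stood at 4.50 (adjusted p = 0.0148) without Exp208_c14, while Pou5f1 gained a call without scGRO-seq batch Exp160 (2.50, 0.0477) or Exp236 (2.50, 0.0396). With the GENCODE start, the ratio for Sox2 was -0.98 (adjusted p = 0.293).

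In AGTuC the upstream reads of Klf4 and Pou5f1 were concentrated at 1 distance. For Klf4, 179 of 291 (61.5%) had their 3′ end between 300 and 399 bp before the start, which is beyond the window printed above and upstream of its 4 GC boxes. For Pou5f1, 47 of 90 (52.2%) lay between 100 and 199 bp before it. Sox2 was less concentrated, with 28 of 80 (35%) between 400 and 499 bp, and Nanog had 11 upstream reads in all. Just outside the window of 1 kb, 66 further antisense reads lay 1 to 2 kb before the start of Sox2. Of these, 50 lay between 1 and 1.25 kb, so that its distances and share depend on the window.

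Between scGRO-seq and inAGTuC, the ratios were -0.75 ± 0.96 for Sox2, 0.46 ± 1.24 for Nanog, 0.43 ± 1.31 for Pou5f1 and -0.75 ± 1.38 for Klf4 (adjusted p from 0.846 to 0.948). None of the 4 and none of 10534 genes (0%) was called by the limma-moderated test, and 701 genes, none of the 4 among them, had an unadjusted p below 0.05. None of the 12 other pluripotency genes measured was called between AGTuC and inAGTuC, where 30.7% of 10534 genes were called higher and 1.07% lower. Their median over the 7 with an estimate was 1.72, from Prdm14 at -0.73 (adjusted p = 0.572) to Zfp42, which encodes Rex1, at 3.03 (adjusted p = 0.112).

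Inside the genes, antisense reads were a smaller part in AGTuC than in inAGTuC for Nanog and Klf4. The share is the antisense reads of the body window as a percentage of the reads of both strands there. Nanog was at 2.17% and 1.19% in AGTuC and at 25.0%, 27.3%, 47.1% and 19.2% in inAGTuC. Klf4 was at 1.82% and 5.25% in AGTuC and at 42.9%, 18.8%, 52.8% and 41.7% in inAGTuC. The 2 assays did not overlap for either gene, and AGTuC was below all inAGTuC libraries for 53.9% of 11006 genes with a value in each. Exp234_c11 was the highest inAGTuC library for both, with 38 antisense and 34 sense reads in the body of Klf4, of which the same barcode held 11 and 12.

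Sox2 was at 1.86% and 5.49% in AGTuC and at 20%, 6.25%, 20% and 10.0% in inAGTuC, and did not overlap either, although the gap was less than 1 percentage point. Pou5f1 was the gene with most antisense reads in AGTuC, at 19.8% and 22%, within the range of the 71.4%, 21.4%, 43.8% and 12.9% of inAGTuC. In scGRO-seq the medians were 0% for Sox2, 14% for Nanog, 26.1% for Pou5f1 and 36% for Klf4, with lowest batches at 0% for each.

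The log2 odds ratio of antisense against sense between AGTuC and inAGTuC was -4.61 ± 2.28 (SE; adjusted p = 0.0254) for Nanog, -4.20 ± 1.61 (adjusted p = 0.0210) for Klf4, -2.06 ± 1.67 (adjusted p = 0.262) for Sox2 and -0.87 ± 0.90 (adjusted p = 0.415) for Pou5f1. Of the 4 genes 2 were called lower, where 37.7% of 12564 genes were called lower and 3.83% higher, and the median gene stood at -2.28. By pooled antisense share, Nanog stood at percentile 27.7 of the genes ranked in AGTuC and 27.4 in inAGTuC. Klf4 stood at 44.9 and 77.6, Sox2 at 45.7 and 1.25, and Pou5f1 at 74.4 and 25.2. Both calls were lost without either AGTuC library, at an adjusted p of 0.190 without Exp125c_c01 and 0.211 without Exp125c_c02, and the calls over all genes then fell from 5222 to 1. Of 12 other pluripotency genes measured, 4 were called lower, with a median of -2.14 beside -2.28 for all genes. They ranged from Tfcp2l1 at -4.84 (adjusted p = 0.0221) to Lefty1 at -0.22 (adjusted p = 0.862). This comparison was added after the data had been seen. Its test used in effect 1 common spread for all genes, with prior degrees of freedom of 151559 against 5.54 to 18.2 in the other comparisons. The spread of a single gene between samples thus had almost no weight in its p.

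Over all genes, the antisense share was 13.2% and 13.5% in the AGTuC libraries, between 19.6% and 53.1% in inAGTuC and between 16.1% and 35.3% in scGRO-seq. Over their whole spans, 5.59% of the reads at the 4 genes were antisense in AGTuC, 30.3% in inAGTuC and 23.3% in scGRO-seq. Beyond Nanog, over the stretch of Slc2a3 within 20 kb, 3 reads lay on the strand opposite to Slc2a3 and 667 on its own strand in AGTuC (0.448%, 95% Wilson interval 0.152 to 1.31). They numbered 61 and 165 in inAGTuC (27%, 21.6 to 33.1) and 89 and 328 in scGRO-seq (21.3%, 17.7 to 25.5). Its part in the antisense shares of the 4 genes was not tested. Against inAGTuC, scGRO-seq differed by log2 odds ratios of -0.35 ± 1.01 for Sox2, -1.23 ± 0.77 for Nanog, -0.52 ± 0.71 for Pou5f1 and -0.93 ± 0.70 for Klf4, with an adjusted p of 1 for all. None of the 4 and none of all genes (0%) was called by the limma-moderated test, while 428 genes and none of the 4 had an unadjusted p below 0.05.

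**Figure D4:**
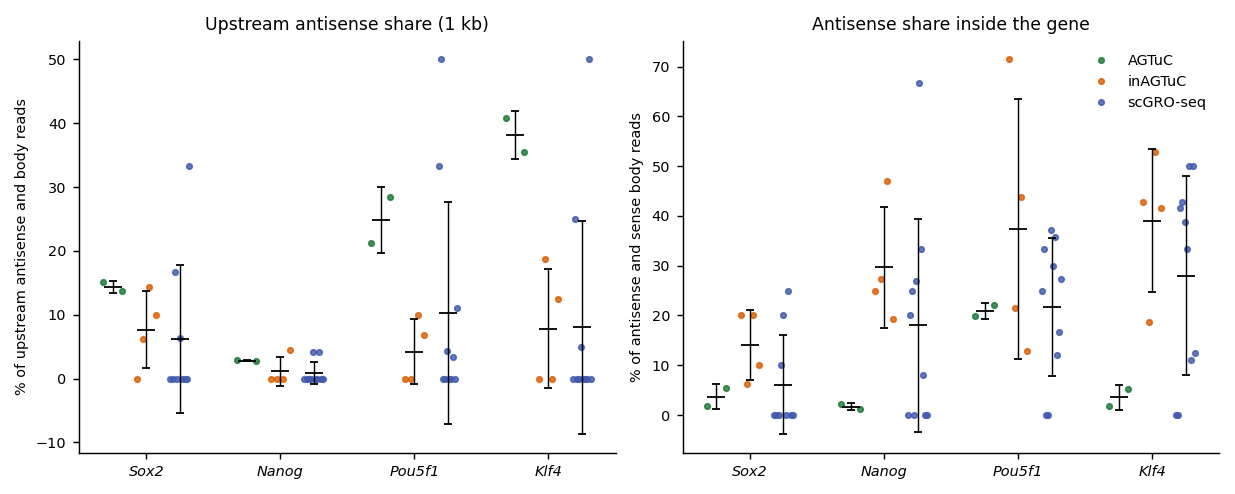
Upstream antisense share (left, antisense reads in the 1 kb before the start as a percentage of these and sense body reads) and antisense share inside the gene (right, antisense reads as a percentage of antisense and sense body reads) for each AGTuC library, inAGTuC library and scGRO-seq batch, with the mean and SD of the assay as bars, which reach below 0 where the spread exceeds the mean. Klf4 has the highest upstream share in AGTuC at 40.9% and 35.5%, and the AGTuC libraries lie below all inAGTuC libraries inside Nanog, Klf4 and, by less than 1 percentage point, Sox2, but not inside Pou5f1.

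Introns took part of the body reads of the 3 genes that have them in shares near their part of the body length in AGTuC. Pooled over libraries, introns held 56.1% of the body reads of Klf4 (95% Wilson interval 51.6 to 60.4), 87.9% of Pou5f1 (83.3 to 91.3) and 81.0% of Nanog (76.8 to 84.6), where introns make up 52.9%, 86.6% and 78.1% of the body length. In inAGTuC the shares were 29.3% (19.2 to 42), 71.4% (57.6 to 82.2) and 69.1% (56 to 79.7). In scGRO-seq they were 26.1% (17.2 to 37.5), 73.8% (65.9 to 80.3) and 77.5% (69.9 to 83.6). The intervals cover counting error only, and 34 of the 58 body reads of Klf4 in inAGTuC came from Exp234_c11, 12 of them from 1 barcode.

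Tested over samples, the log2 odds ratio of introns against exons between AGTuC and inAGTuC was 1.48 ± 0.54 (SE; unadjusted p = 0.00900, adjusted p = 0.143 by the limma-moderated test) for Klf4, 1.69 ± 0.70 (unadjusted p = 0.0180, adjusted p = 0.194) for Pou5f1 and 0.88 ± 0.58 (adjusted p = 0.478) for Nanog. Leaving out 1 sample at a time moved Klf4 between 0.60 (without Exp234_c11) and 1.78 (without Exp208_c12), and Pou5f1 between 1.16 (without Exp234_c11) and 2.36 (without Exp125c_c02). None of the 3 was called and 2 had an unadjusted p below 0.05, where 2.05% of 13296 genes were called, 0.654% as higher and 1.39% as lower in AGTuC, and 2122 genes had an unadjusted p below 0.05. Against inAGTuC, scGRO-seq stood at -0.44 ± 0.60 for Klf4, 0.17 ± 0.58 for Pou5f1 and 0.61 ± 0.55 for Nanog (adjusted p = 0.961 to 0.987). None was called by the limma-moderated test, nor any of all genes (0%), where 647 genes and none of the 3 had an unadjusted p below 0.05. This comparison, too, was added after the data had been seen.

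In single cells, each of the 4 genes was seen in a small part of the cells. Of 2512 kept cells, 180 had a sense UMI within Pou5f1 (7.17%, 95% Wilson interval 6.22 to 8.24), 156 within Nanog (6.21%, 5.33 to 7.22), 152 within Sox2 (6.05%, 5.18 to 7.05) and 82 within Klf4 (3.26%, 2.64 to 4.03). The spans differ in length, so the shares do not order the genes by their level. On the antisense strand of the same spans, the shares were 2.71%, 1.83%, 1.47% and 1.07%. Each of these pooled sense shares was above the antisense share. The antisense strand is given for comparison, and how much of it is background was not tested.

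Between batches, the share of cells with a sense UMI was 5.66% ± 3.86 (SD, n = 10) for Sox2, from 0 of 93 cells in Exp246, where a limit of 3 cells allows a share of up to 3.23%, to 13.5% in Exp211. It was 5.59% ± 3.09 for Nanog, from 2.15% to 12.6%, and 6.15% ± 3.10 for Pou5f1, from 0.901% to 9.85%. It was 3.82% ± 2.85 for Klf4, from 0.397% to 10.7%. Exp156 was the highest batch for Nanog and Klf4 although its cells were the shallowest, with a median of 1864 UMIs against 2814 to 4155.5 in the other batches.

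Depth moved these shares. Thinned to 1000 UMIs per cell, which kept all 2512 cells, the share of cells was 1.85% for Pou5f1, 1.60% for Nanog, 1.46% for Sox2 and 0.899% for Klf4. The antisense shares were then 0.489%, 0.381%, 0.286% and 0.256%. Sense stayed above antisense for all 4 genes. Which reads and which span were counted also moved the means over batches. With all deposited reads the mean was 9.89% for Sox2, above the 7.74% of Pou5f1, and with the 5 kb past the end included it was 10.1% for Pou5f1.

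Most cells with a gene had 1 UMI of it. More than 1 sense UMI was found in 8 of 152 cells for Sox2, 13 of 156 for Nanog, 8 of 180 for Pou5f1 and 2 of 82 for Klf4, and the most in 1 cell was 3, for Sox2. At least 1 of the 4 genes was seen in 508 cells (20.2%, 95% Wilson interval 18.7 to 21.8), exactly 2 in 54 cells, 3 in 4 cells and all 4 in none, where a limit of 3 cells allows a share of up to 0.119%. The cells with more of the genes were deeper, with a median of 3321 UMIs for none, 3826 for 1, 7714.5 for 2 and 14078 for 3 genes.

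Sox2 and Pou5f1 were seen together in 20 cells, 13.2% of the cells with Sox2 and 11.1% of those with Pou5f1. Sox2 and Nanog shared 14 cells, Nanog and Pou5f1 12, and Klf4 shared 7 with Sox2, 7 with Nanog and 6 with Pou5f1. The median depth of the cells that a pair shared was between 7045 and 12535 UMIs, above the 3435.5 of all kept cells, and the part of depth in these counts was not tested.

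**Figure D5:**
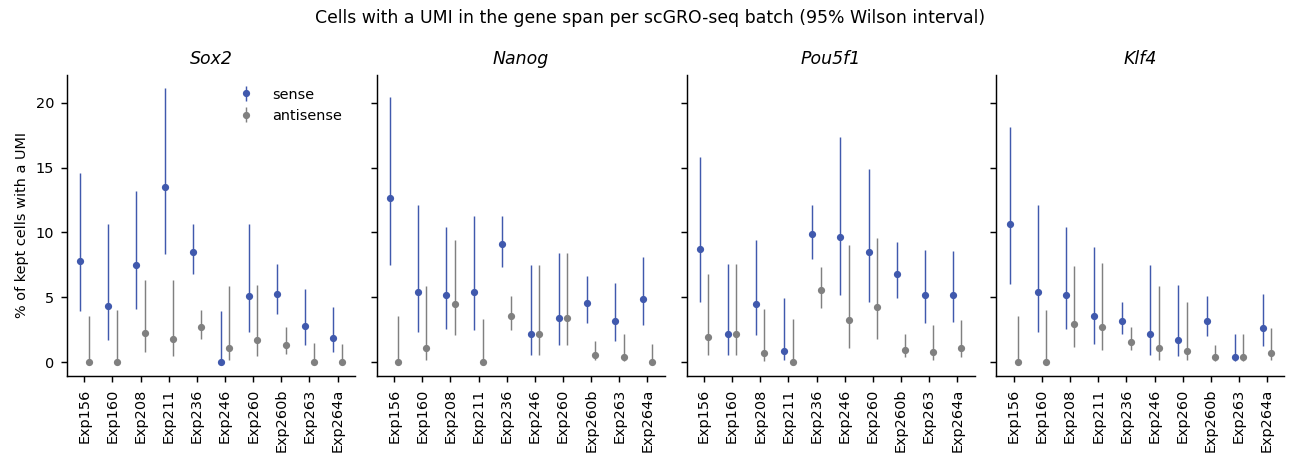
Percentage of kept cells with at least 1 sense UMI (blue) or antisense UMI (grey) within the span of each gene in the 10 scGRO-seq batches, with 95% Wilson intervals as bars, which cover counting error only. Sense shares run from 0% (Sox2 in Exp246) to 13.5% (Sox2 in Exp211), and the batch with the shallowest cells, Exp156, has the highest share for Nanog (12.6%) and Klf4 (10.7%).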

How the data were processed

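Nuclei of V6.5 mouse ES cells were profiled by AGTuC, inAGTuC and scGRO-seq. Per the labels and the study's methods, the authors trimmed reads with cutadapt, aligned those that did not map to ribosomal sequence to mm10 with Bowtie2, and removed duplicates with UMI-tools (versions not given in the sources used here). The deposited lists hold 1 line per read with a mapping quality score, and no table of values per gene. The RNA lies on the strand opposite to the listed one, and its 3′ end marks the polymerase.

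Reads were counted over RefSeq genes of GRCm38 longer than 1500 bp. Cells with at least 1000 UMIs and 750 genes, in libraries with at least 24 such cells, were kept and summed per batch, for the 10 batches named in a figure of the study. Molecules listed in more than 1 library were left out, and a scGRO-seq list that repeats an inAGTuC list (99.7% of its molecules) was not counted. Windows were the first 500 bp, the body from there to 500 bp before the end, 5 kb past the end and 1 kb upstream. Other genes were left out where a further curated gene lay on the counted strand of the gene or window. Sox2 was kept although it lies inside Sox2ot, so the shares over all genes come from genes without such an overlap.

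The edgeR test first chosen was not run, and the models below were fitted in its place to the reads counted here. Shares were tested with a beta-binomial and levels with a negative-binomial quasi-likelihood model on the 16 samples, with gene dispersions moderated by limma 3.58.1 in R 4.3.3, levels scaled by trimmed means, and p-values adjusted by Benjamini-Hochberg over all genes with at least 50 reads in both windows (threshold 0.05). On simulated data with 200 genes changed 4-fold, the level test recovered 12.5% between AGTuC and inAGTuC (13766 genes) and 59.5% between scGRO-seq and inAGTuC, or 21% with experiment batch as a block (6924 genes). The share tests recovered 7% and 17% (promoter, 13832 genes), 5.5% in both (readthrough, 13171 genes), and 0.5% and 1.5% (upstream antisense, 10533 genes). Only these 200 genes were changed, whereas 7353 of 13833 genes were called for the promoter between AGTuC and inAGTuC in the data. Adjustment is stricter where few genes change, so the simulated rates do not give the power of the tests with AGTuC. Intervals are 95% Wilson intervals.

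The genes named were the 4 genes, annotated neighbours within 20 kb, the 3 genes most like each by Pearson's r, 16 other pluripotency genes and the markers. Members and lists were chosen with earlier results of these data known. Alternatives covered the reads, cells and batches kept, mapping quality, windows, scaling, the low-count filter and each sample left out.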

Additional observations from a re-analysis of the deposited data

Results flagged for a closer look

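In 8 of 44 groups of values for the 4 genes, 1 sample lay far from the others by Dixon's criterion, which chance meets in about 1 of 20 groups of normally distributed values. Its rate for these values, many from few reads, was not determined. The scGRO-seq batch Exp156 accounted for 4 of them. Its gene body level was 18.3 RPKM for Sox2, 10.2 for Nanog and 9.30 for Klf4, and 10.7% of its 103 cells had a sense UMI of Klf4. The others rested on few reads: an upstream antisense share of 50.0% for Klf4 in Exp263 and of 33.3% for Sox2 in Exp264a, each from 1 upstream read, of 4.55% for Nanog in inAGTuC library Exp261_c16, from 1 read, and an antisense share inside Nanog of 66.7% in Exp246, from 2 antisense reads and 1 sense read.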

How the results depend on the processing

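Counts below are of the 4 genes called, and ratios are on the log2 scale. Over 1099 values of single genes and of pairs of them under alternatives, 1003 kept their direction and their side of the threshold, 54 fell short of it, 7 newly passed it with the same sign and 35 changed sign, of which the Sox2 promoter with GENCODE spans passed it. Between AGTuC and inAGTuC, the promoter comparison called 1 gene in place of 0 with all deposited reads, with GENCODE spans and with a promoter of 250 bp, and 0 without any 1 sample. Readthrough called 2 in place of 4 with all scGRO-seq batches and with 10 kb past the end, and 1 to 4 without 1 sample. Upstream antisense called 2 in place of 1 with the UMI minimum alone, and 0 to 2 without 1 sample. Level called 1 in place of 4 with all scGRO-seq batches or with every gene with a read, 2 with a mapping quality of at least 10 or with each position counted once, and 0 to 4 without 1 sample. Antisense inside the gene called 0 in place of 2 with all scGRO-seq batches, and 0 to 2 without 1 sample. With the settings used above, 53.2% of all genes were called for the promoter, 27.6% for readthrough and 31.8% for upstream antisense. The shares were 17.4% for level and 41.6% for antisense inside the gene. With all deposited reads, the promoter went from 7353 to 7725 calls over all genes. Readthrough then went from 3635 to 4376 and upstream antisense from 3352 to 3861. With all scGRO-seq batches, calls over all genes fell for level and antisense inside the gene, as given below. The cause of these changes was not tested.

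Signs changed for the promoter of Sox2 between AGTuC and inAGTuC (1.89 with GENCODE spans, 0.63 with 250 bp, and 0.09 and 0.38 without Exp125c_c01 and Exp234_c11). They also changed there for upstream antisense of Sox2 (-0.98 with GENCODE spans) and Nanog (-0.26 with 2 kb). Between scGRO-seq and inAGTuC, where none of the 4 genes was called, the promoter ratio turned for Pou5f1 (0.0085 with 250 bp) and Klf4 (0.33 with all deposited reads, 0.19 with the UMI minimum alone, 0.27 with 250 bp), readthrough for Pou5f1 (-0.011 with 10 kb), and level for Nanog (-0.11 with all batches, -0.048 scaled by total reads, -0.80 with the replicate block by experiment batch). Upstream antisense turned for Nanog (-0.13 with 2 kb), Pou5f1 (-0.18 with 2 kb) and Klf4 (0.37 with all deposited reads), and introns for Nanog (-0.29 with all deposited reads). Leaving out 1 sample at a time gave ranges that crossed 0 for the promoter of Sox2 (-0.61 to 0.38 between AGTuC and inAGTuC). Between scGRO-seq and inAGTuC they crossed it for the promoter of Sox2 (-0.20 to 0.79) and Klf4 (-0.52 to 0.067), readthrough of Klf4 (-0.11 to 1.28), and upstream antisense of Nanog (-0.51 to 0.64), Pou5f1 (-0.093 to 0.82) and Klf4 (-1.83 to 0.75). The others were the level of Nanog (-0.17 to 0.21) and Klf4 (-1.04 to 0.13), antisense inside Sox2 (-0.88 to 0.026) and Pou5f1 (-1.11 to 0.019), and introns of Pou5f1 (-0.37 to 0.61).

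The mean share of cells was 9.89% for Sox2 with all deposited reads and 10.1% for Pou5f1 with 5 kb past the end included. Thinned to 1000 UMIs, the means over batches were 1.61% for Sox2, 1.74% for Nanog, 1.88% for Pou5f1 and 1.14% for Klf4, or 0.715% for Klf4 without Exp156. In the order of levels 1 pair in place of 0 differed with all deposited reads and with the UMI minimum alone, where Nanog minus Klf4 was -0.052. Calls over all genes between AGTuC and inAGTuC went from 2402 down to 231 for level without Exp125c_c01 or 494 with all scGRO-seq batches (309 higher in place of 924), from 5222 to 1 for antisense inside genes without it or 17 with all scGRO-seq batches, from 3635 to 2277 for readthrough without Exp261_c16, and from 272 to 62 for introns without Exp125c_c02 or 652 with all deposited reads.

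The 4 genes had as few as 4 readthrough reads (Klf4) and 1 upstream read (Nanog) over all inAGTuC libraries, which limits what these comparisons can show. Nanog gave no upstream value without Exp261_c16, since no inAGTuC read was left. The DESeq2 alternative was not run. Replicate numbers do not pair the samples, and AGTuC shares no batch with another assay. The block by experiment batch, chosen after seeing the data, covered the level of scGRO-seq against inAGTuC in 5 samples, where it called 0 of 6925 genes in place of 2. The same fit recovered 0% of 4-fold changes in simulated promoter shares (5936 genes), so shares were not fitted with it.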

Other observations

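Kept cells of 4 scGRO-seq batches outside the 10 compared held few sense reads of the 4 genes. Summed over the genes, they numbered 3 in 47 cells of Exp179 (22.8 RPM, reads scaled to 1000000 in the batch), 10 in 123 cells of Exp261 (19.1 RPM), 1 in 83 cells of Exp263b (2.00 RPM) and 0 in 49 cells of Exp256, where a limit of 3 reads allows up to 12.4 RPM. Over all genes, the antisense shares of these batches were 34.4%, 41%, 48.8% and 49.2%.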
